A study of Macaca fascicularis with 4 samples.

Results

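The intermediate mesoderm cells described here were 169 of the 10639 cell barcodes of a cynomolgus monkey embryo library at embryonic day 24 (E24), or 1.59% (1.36% to 1.84%). A barcode was a member when it held at least 1 unique molecular identifier (UMI) of PAX8, at least 1 of WT1 or OSR1, and 0 of GATA3 and RET. The remaining 10470 barcodes of the E24 library were the comparison. Because the counts of these 5 genes chose the members, and genes that travel with them follow from that choice, the members were chosen by measured values and every comparison at E24 is a description that carries no test.

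Intermediate mesoderm is the strip of embryonic tissue between the somites and the lateral plate, and the kidneys, their ducts and much of the reproductive tract come from it. PAX8 and its relative PAX2, with the LIM homeobox factor LHX1, are early transcription factors of the nephric lineage. OSR1 is a zinc finger factor of early intermediate and lateral mesoderm, and WT1 is a zinc finger factor of kidney precursors, podocytes and the lining of the body cavity. Within the lineage the nephric duct becomes an epithelial tube that carries GATA3 and the GDNF receptor RET, while the cells beside it, the nephrogenic cord, secrete GDNF and form the nephrons. The selection therefore asked for nephric cells with a factor of the cord and without these duct genes.

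The series title names the embryonic origin of gonadal somatic cells as its subject. Single cells of Macaca fascicularis embryos were captured in droplets and their transcripts sequenced from the 3′ end, with 1 library for each of E24, E28, E31 and E37 (Carnegie stages 11, 13, 14 and 18) and 27626 barcodes in all. Per the labels' protocols, E24 tissue was the trunk after yolk sac, amnion, the heart with everything anterior to it, and the posterior growth zone had been cut away; E28 and E31 tissue was the urogenital ridge (mesonephros, coelomic epithelium and part of the mesentery), and at E37 it was gonadal ridge for the most part, with remnants of mesonephros, mesentery and what was taken to be adrenal. No genotype or treatment is labelled at any stage. The E24 label carries 2 animal codes, and nothing in its file tells their cells apart, so E24 counts as 1 sample. With 1 library a stage there is no replicate check: all differences are between sets of barcodes or between libraries, and every 95% interval, given in parentheses, covers counting error only.

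The E24 library held 115332663 UMIs, of which the members held 2172207. The median member held 12057 UMIs (quartiles 9597 and 15675, range 3774 to 33515) and 3418 genes, against 9960 UMIs and 3069 genes for the other E24 barcodes, so members were the deeper set. Levels below are in CPM, the UMIs of a gene summed over a set of barcodes, per 1000000 UMIs of that set. A level of 10 CPM in the members is 22 UMIs, and a gene without a UMI there lies below 1.38 CPM, the level of 3 counts. A gene was measured in a comparison when at least 20 UMIs were seen or expected in the smaller set, and it is called higher or lower at a ratio of at least 2-fold. Each library shared 37 to 111 barcode sequences with another, and 4 members carried such a sequence. They were kept.

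PAX8 stood at 158 CPM in the members (142 to 176) and 6.42 CPM in the other E24 barcodes, WT1 at 102 CPM (89.2 to 117) against 5.28, and OSR1 at 93.0 CPM (80.6 to 107) against 13.8. These values are what the selection asked for. In the whole library PAX8 was found in 520 barcodes (4.89%), WT1 in 527 (4.95%) and OSR1 in 985 (9.26%), and in a cluster of 110 erythroid barcodes, which should lack all 3 genes, it was found in none at a median of 23119 UMIs. WT1 and OSR1 together were present in 58 members (34.3%), WT1 without OSR1 in 66 (39.1%) and OSR1 without WT1 in 45 (26.6%). Low counts decided membership for many: 87 members held exactly 1 PAX8 UMI, 82 held 2 or more, the highest count was 8, and 27 members sat at the minimum in both conditions.

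Just outside the selection lay 120 barcodes with PAX8 and with WT1 or OSR1 that were left out for GATA3 (119) or RET (2, 1 of them with both). Exactly 1 GATA3 UMI left out 75 of them. Their levels of PAX8 (165 CPM), WT1 (99.5 CPM) and OSR1 (98.9 CPM) lay close to those of the members, their GATA3 stood at 103 CPM, and their median depth was 14108 UMIs. A further 111 barcodes had PAX8 at 160 CPM without any of the other 4 genes. GATA3 was found in 2530 E24 barcodes (23.8%), and at this depth 0 UMIs of GATA3 do not show that a cell lacked it.

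The markers that had no part in the selection were the check of the label. Of the intermediate mesoderm list without the rule genes, all 11 genes were named in the files and 8 were measured. Of these 7 were higher in the members, among them LHX1, EYA1, OSR2, EMX2, FOXC1 and NR0B1, and none was lower, with a median log2 ratio of 1.68 beside 0.01 over all 8694 measured genes. Over those 8694 genes 2.07% were called higher and 3.83% lower, a background from which nothing is read here because the selection used this contrast. LHX1, which is needed for kidney formation, stood at 174 CPM against 19.6, or 8.85-fold higher (7.91 to 9.87). EYA1, a transcriptional coactivator of kidney precursors, stood at 93.9 against 11.7 CPM (8.01-fold higher, 6.88 to 9.29). OSR2, the close relative of OSR1, was 10.9-fold higher (8.62 to 13.6, 43.3 against 3.98 CPM). OSR2 met the filter only through its level in the members, and so did others named below, among them C1QTNF7, CCL26, IL24, IFI27, GDNF and ITGA8. The NR0B1 call rests on a small part of the members, as given below. Of the genes too low to be measured, PAX2 stood higher in the members and HOXD11 lower. For the members as a set, the measured markers did not go against the label, but they are not an independent test of it.

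Per barcode the markers were patchy. LHX1 was found in 52.7% of members (44.9% to 60.4%), EYA1 in 59.2% (51.4% to 66.7%) and OSR2 in 36.7% (29.4% to 44.4%). The same genes were found in 7.23%, 8.57% and 3.02% of the other E24 barcodes, and in 0.909%, 0% and 1.82% of the erythroid cluster. After every barcode was thinned to 3000 UMIs the shares were 30.8%, 19.5% and 11.8% in members and 3.58%, 3.26% and 1.04% in the others. Of a panel of 9 nephric precursor genes, chosen after their values were seen (LHX1, EYA1, SALL1, OSR2, GDNF, ITGA8, CITED1, PAX2 and HOXD11), the median member held 3 and the median other barcode 0. None of the 9 was found in 7 members (4.14%) and in 5294 other barcodes (50.6%). Thinned to equal depth, the medians were 1 and 0.

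PAX2, the partner of PAX8 in the early nephric lineage, was rare. It gave 18 UMIs in the members, 8.29 CPM against 1.21 CPM elsewhere, a ratio of 6.84 (3.94 to 11.2) on too few counts to be measured, and it was found in 8.88% of members (5.05% to 14.2%). SIX2, which maintains nephron progenitors in the later kidney, gave 5 UMIs, and HOXD11, a gene of the definitive kidney's territory, gave 1 UMI (0.460 CPM against 3.37).

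When the E24 library was clustered without the 5 rule genes, 29 clusters resulted and the members were gathered in few of them. Cluster 8 held 127 of the 169 members (75.1%, 67.9% to 81.5%). It was led by LHX1, PAX8, OSR1, EYA1 and WT1 and was called intermediate-mesoderm-like from those markers. Members were 28.5% of its 445 barcodes (24.4% to 33.0%), and 59.1% of its barcodes held PAX8. Cluster 10 held 20 members (11.8%), which were 7.78% of its 257 barcodes (4.82% to 11.8%). It was led by NR0B1, DLK1, NPPB, ALDH1A2, LHX1, EFEMP1 and OSR2, and PAX8 was found in 23.0% of it. The other 22 members were spread over 13 clusters with 1 to 3 in each, and 14 clusters held none.

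**Figure D1:**
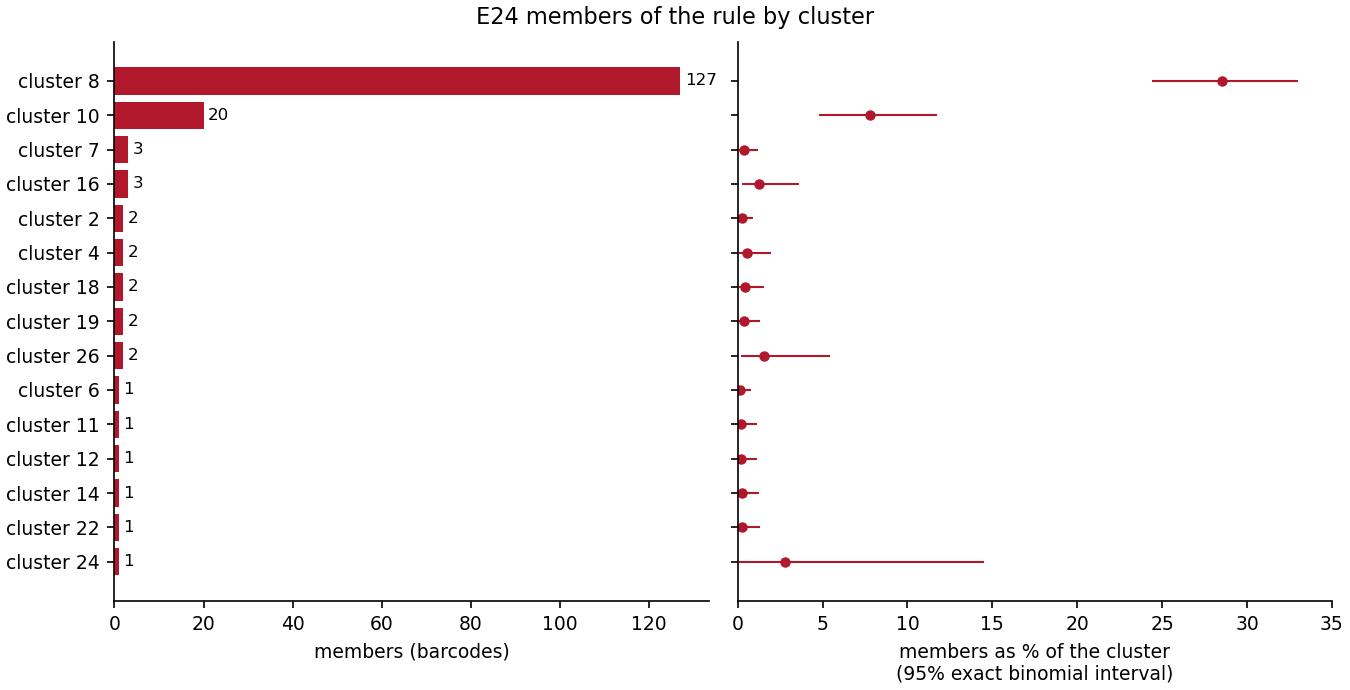
Members in each of the 15 E24 clusters that held any, as a number of barcodes (left) and as a percentage of the cluster with its exact binomial 95% interval (right). Cluster 8 holds 127 members and cluster 10 holds 20, and the other 13 clusters hold 1 to 3 each.

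The barcodes that the GATA3 and RET conditions removed lay mostly in cluster 8 as well, with 81 of the 120 there (67.5%). Cluster 1 was another cluster rich in PAX8. It held 138 barcodes led by LHX1, VMO1, EMX2, TFAP2A and GFRA1, with PAX8 in 61.6% and GATA3 in 81.9% of them. Neither WT1 nor OSR1 was found in any of its barcodes, so all of them failed the WT1 or OSR1 condition and it held no member. Outside clusters 1, 8 and 10 the highest share of barcodes with PAX8 was 7.32%.

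The 22 members outside clusters 8 and 10 differed from the rest in depth and doublet score. Their median depth was 17590 UMIs, and 11 of them had a Scrublet doublet score among the highest 8.52% of the library, against 8 of the 127 members in cluster 8 (6.30%), 1 of the 20 in cluster 10 (5.0%) and 8.46% of the other E24 barcodes. They had HAND1 at 112 CPM and SOX2 at 61.1 CPM, beside LHX1 at 93.0, EYA1 at 29.2 and PAX8 at 87.7 CPM. Without these 22 members 172 of 8132 measured genes were higher and 390 lower than in the other E24 barcodes, in place of 180 and 333 of 8694. The log2 ratio of HAND1 was −4.08 without them in place of −2.46, that of SOX2 −3.92 in place of −2.69, that of PITX1 −5.99 in place of −3.09 and that of LUM −5.39 in place of −1.72, so part of what the members held of these genes lay in the 22 barcodes. LHX1 (3.28 in place of 3.15) and EYA1 (3.20 in place of 3.00) moved little.

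Beside LHX1, EYA1 and OSR2, the genes named by size on the higher side were 9 that had no place on the marker list. C1QTNF7, a secreted protein with a C1q domain, stood at 26.2 against 1.16 CPM (22.7-fold higher, 16.3 to 31.2). The chemokine CCL26 stood at 33.1 against 1.52 CPM (21.8-fold, 16.3 to 28.9) and the cytokine IL24 at 39.1 against 2.17 CPM (18.1-fold, 14 to 23.2). IFI27, an interferon-inducible gene, stood at 117 against 6.79 CPM (17.2-fold, 14.9 to 19.9), and it was found in 49.1% of members against 4.95% of other barcodes. IFITM1, another interferon-inducible gene, stood at 200 against 30.3 CPM (6.62-fold, 5.97 to 7.31). SEMA3C, a secreted guidance cue, was 6.91-fold higher (87.5 against 12.7 CPM), FAM132A 6.18-fold (33.1 against 5.36 CPM) and SMIM41 13.7-fold (24.4 against 1.79 CPM). C1QTNF7, CCL26, IL24, IFI27, FAM132A and SMIM41 met the filter only through their level in the members. SFRP2, a secreted modulator of WNT signalling, reached 603 CPM against 120 (5.02-fold, 4.74 to 5.31) and was found in 74.0% of members and 40.0% of other barcodes.

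**Figure D2:**
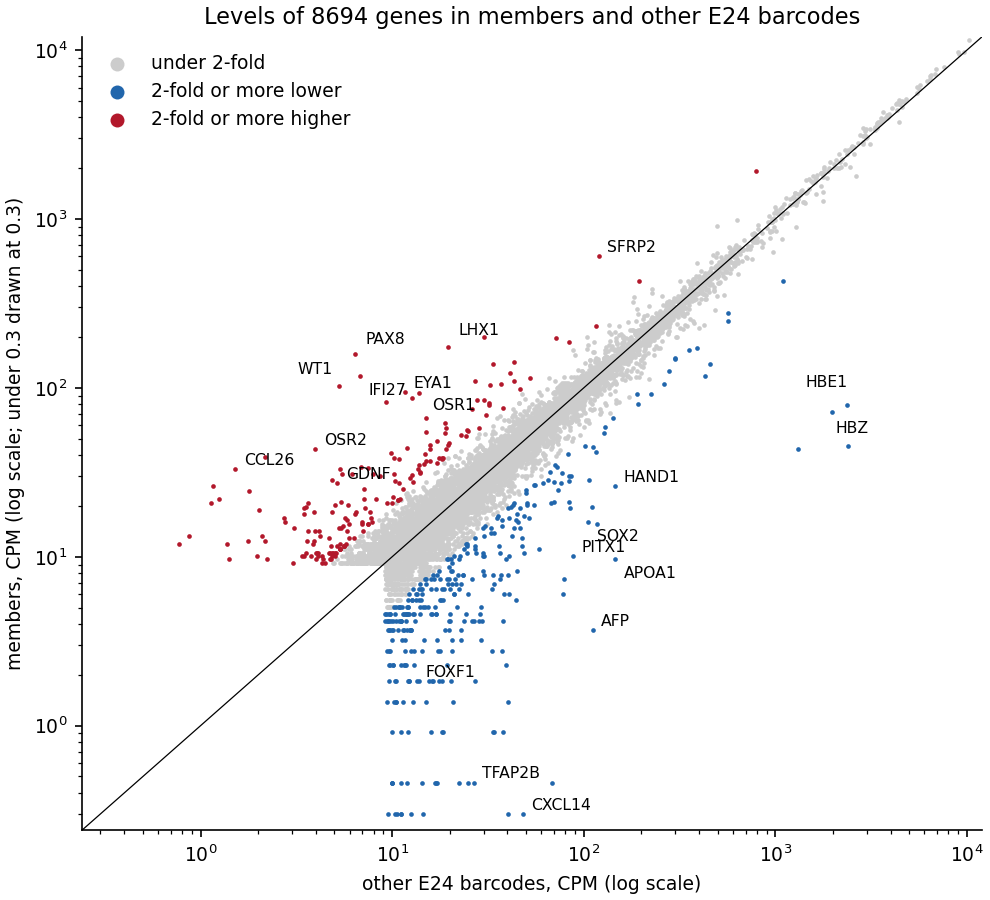
Level of each of the 8694 measured genes in the 169 members (vertical axis) against the other 10470 E24 barcodes (horizontal axis), both in CPM on log axes. Genes at least 2-fold higher in members are red (180 genes), those at least 2-fold lower are blue (333), the line marks equal levels, and values under 0.3 CPM are drawn at 0.3.

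Genes of the nephrogenic cord, the tissue that will condense into nephrons, were partly present. Of the 35 nephrogenic genes 23 were measured, 9 were higher and 3 lower, with a median log2 ratio of 0.79. Of the 9, 7 were the intermediate mesoderm markers above, and the others were CITED1 and TCF21. CITED1, a transcriptional coregulator of nephron progenitors, stood at 41.4 against 9.87 CPM (4.2-fold higher, 3.35 to 5.21). SALL1, a zinc finger factor of the same cells, stood at 85.6 against 49.5 CPM, a ratio of 1.73 (1.49 to 2) that did not reach 2-fold.

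GDNF, the signal that draws the ureteric bud towards kidney mesenchyme, was detected in the members, whose selection had removed its receptor RET. It stood at 27.2 CPM against 5.18 (5.25-fold higher, 3.94 to 6.86) and was found in 23.7% of members and 3.54% of other barcodes. GFRA1, the co-receptor, stood at 12 against 8.20 CPM, a ratio of 1.46 (0.948 to 2.15). Of the 26 genes of GDNF and bud signalling 20 were measured, 8 were higher and 1 lower, with a median of 0.46. GREM1, an antagonist of BMP signals, was 3.80-fold higher (38.7 against 10.2 CPM) and ETV4, an ETS factor downstream of FGF and RET signals, 3.68-fold higher (44.2 against 12 CPM). ITGA8, the integrin of kidney mesenchyme, stood at 29.9 against 8.68 CPM (3.45-fold higher, 2.64 to 4.43). GDNF and ITGA8 met the filter only through their level in the members, so the list count leans on them. NPNT, a ligand of ITGA8, was the lower gene, with 2 UMIs in the members and 10.0 CPM elsewhere, a ratio of 10.9 (3.00 to 89.9).

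Several NOTCH genes were higher in the members. Of 18 genes 12 were measured, 5 were higher and 2 lower, with a median of 0.70. The ligand JAG1 stood at 139 against 33.8 CPM (4.10-fold higher, 3.64 to 4.61), the receptor NOTCH2 at 122 against 41.2 CPM (2.97-fold, 2.62 to 3.37) and the target HEY1 at 84.7 against 30.1 CPM (2.81-fold, 2.41 to 3.27). HES4 and HEYL, further targets, were 2.23-fold and 2.06-fold higher. HES7, the oscillating NOTCH target of presomitic mesoderm, was lower at 3.68 against 22.8 CPM (6.20-fold, 3.14 to 14.4).

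The other signalling lists went both ways. For WNT 3 of 16 measured genes were higher and 3 lower (median −0.21): RSPO3, a secreted WNT enhancer, stood at 110 against 43.5 CPM (2.52-fold higher) and FZD4, a WNT receptor, was 2.21-fold higher, while SFRP1 was 2.04-fold lower (92.5 against 189 CPM). For retinoic acid 1 of 13 was higher and 4 lower (median −0.30): RDH10, which starts retinoic acid synthesis, stood at 46.0 against 15.8 CPM (2.91-fold higher, 2.35 to 3.55), and CYP26A1, which breaks retinoic acid down, was 3.86-fold lower (2.41 to 6.64, 7.83 against 30.2 CPM). ALDH1A2, the enzyme of the last step of its synthesis, stood at 38.7 against 19.7 CPM, just under 2-fold (1.97, 1.56 to 2.44). For BMP 2 of 20 were higher and 5 lower (median −0.12), with BMP4 at 114 against 52.4 CPM (2.17-fold higher) and the pseudoreceptor BAMBI at 19.8 against 110 CPM (5.58-fold lower). For FGF 3 of 14 were higher and 2 lower (median 0.09), with FGF9 2.74-fold higher (40.5 against 14.8 CPM) and FGF17 9.16-fold lower (4.14 against 38.0 CPM). Of hedgehog genes 1 of 7 was lower (PTCH1, 27.2 against 61.2 CPM) and none higher (median −0.01).

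Genes of formed nephric epithelium were mostly lower in the members or too low to be measured. Of the 24 nephric duct genes 10 were measured, none was higher and 6 were lower (median −1.50). A further 9 had 0 UMIs in the members, among them the duct and tubule genes SIM1, CDH16, WNT9B and WNT11 and the epithelial cadherin CDH1. TFAP2B gave 1 UMI against 26.6 CPM elsewhere (a ratio of 57.8, 10.4 to 2282), TBX3 stood at 10.1 against 40.5 CPM (4-fold lower), and the claudins CLDN3 and CLDN4 gave 3 and 2 UMIs. Since GATA3 and RET were selected against, low duct genes are close to the rule. Of the 26 tubule and podocyte genes 13 were measured, 2 were higher (JAG1 and HEY1, also NOTCH genes) and 3 lower (median 0.24). PODXL, a sialomucin of podocytes and other epithelia, stood at 27.2 against 75.7 CPM (2.79-fold lower, 2.16 to 3.66), and NPHS1 and CUBN gave no UMI.

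Most epithelial and mesenchymal genes did not reach 2-fold. Of 16 measured epithelial genes none was higher and 3 lower (median −0.59), and of 24 measured mesenchymal genes none was higher and 6 lower (median −0.82). Keratin 18 (KRT18) stood at 391 against 389 CPM and keratin 8 (KRT8) at 357 against 539, while keratin 19 (KRT19) was 2.04-fold lower (279 against 567 CPM). The matrix genes COL3A1 (118 against 432 CPM, 3.66-fold lower) and LUM (138 against 455 CPM, 3.30-fold lower) and the mesenchymal factors PRRX1 and TWIST1 (6.23-fold and 4.96-fold lower) were lower. The intermediate filament VIM stood at 641 against 973 CPM and N-cadherin (CDH2) at 197 against 148.

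Genes of the tissues on either side of intermediate mesoderm differed in how far they stood from the rest. Among splanchnic mesoderm genes 7 of 9 measured were lower and 1 higher (median −2.12). HAND1, a factor of lateral plate mesoderm, stood at 26.2 against 145 CPM (5.54-fold lower, 4.28 to 7.32), FOXF1, a factor of gut mesenchyme, at 1.84 against 13.4 CPM (7.30-fold lower), and GATA6 and ISL1 were 5.75-fold and 7.47-fold lower. Among limb and somatic mesoderm genes 2 of 12 were higher and 7 lower (median −1.78), with the hindlimb factor PITX1 at 10.1 against 88.3 CPM (8.71-fold lower, 5.75 to 13.9). Paraxial genes were mixed, with 2 of 15 higher and 4 lower (median 0.31): MEOX1, a somite factor, stood at 43.7 against 35.5 CPM, TBX6 at 5.98 against 11.1, and TCF15 was 2.41-fold, RIPPLY1 5.73-fold and MEOX2 17.4-fold lower (2 UMIs of MEOX2, 4.80 to 144). Among the higher genes was MESP1, a factor of early mesoderm (10.6 against 5.05 CPM, 2.09-fold), which met the filter only through the members. In the coelomic epithelium and gonad list 2 of 10 were higher and 5 lower (median −0.69): TCF21, a factor of visceral mesoderm and podocytes, was 3.67-fold higher (3.02 to 4.42, 54.8 against 14.9 CPM), and GATA4, LHX9 and NR5A1 gave no UMI. GATA4, LHX9 and NR5A1 were also too low in the other barcodes to be measured, so their 0 UMIs are not read as a difference.

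Markers of the axial, caudal and blood lineages stood low in the members. Among neural tube genes none was higher and 7 of 8 measured were lower (median −2.72, summed level 55.2 against 282 CPM), with SOX2 at 16.1 against 106 CPM and PAX6 at 2.76 against 33.2. Among notochord and gut endoderm genes none was higher and 7 of 9 were lower (median −2.26), with the liver plasma protein genes AFP and APOA1 at 3.68 and 9.67 CPM against 111 and 146. Without the GATA3 and RET conditions the log2 ratios of AFP, APOA1 and TTR were 0.41, 0.14 and 0.43. In the PAX8 barcodes with GATA3 or RET, 84.4% of the UMIs of AFP, 71.9% of those of APOA1 and 65.2% of those of TTR lay in 1 barcode. Among neuromesodermal and caudal genes none was higher and 7 of 10 were lower (median −1.47), with CDX1 9.02-fold and T 24.3-fold lower (1 UMI of T, 4.35 to 960), whereas CDX4 stood at 41.4 against 45.9 CPM and the RNA-binding protein LIN28A at 199 against 194. Neural crest (4 of 5 lower, median −1.45), surface ectoderm (2 of 5 lower, median −0.59) and germ cell genes (1 of 2 lower, median −1.56) had no higher member.

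Endothelium and blood markers were summed at 210 CPM in members and 4964 CPM in the other barcodes, with 9 of 11 measured genes lower and 1 higher (median −4.60), and PECAM1, CDH5, TIE1, KLF1 and PTPRC gave no UMI. Of those without a UMI, only CDH5 was high enough in the other barcodes to be measured. The embryonic globin genes were present at a low level, HBZ at 45.6 against 2383 CPM (52.3-fold lower, 43.0 to 64.3) and HBE1 at 78.7 against 2369 CPM (30.1-fold lower, 25.9 to 35.2). HBE1 was found in 58.6% of members and 54.5% of other barcodes, and in 95.5% of the erythroid cluster. The higher gene, ETV2, an ETS factor of vascular precursors, stood at 30.8 against 5.49 CPM, but all 67 UMIs came from 8 barcodes and 32 from 1 of them. ETV2 met the filter only through the members.

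No S phase gene of 19 measured and no G2/M gene of 20 reached 2-fold. The S phase genes had a median log2 ratio of −0.27 (−0.58 to 0.09, summed level 1925 against 2306 CPM). The G2/M genes had ratios below 0 throughout (median −0.54, −0.85 to −0.25), with a summed level of 2077 against 2956 CPM. Of 12 measured growth genes 2 were higher and 2 lower (median −0.11), among them the imprinted cell cycle inhibitor CDKN1C at 197 against 72.0 CPM (2.74-fold higher, 2.48 to 3.02) and IGFBP5, which binds insulin-like growth factors, at 430 against 194 CPM (2.21-fold higher). Of 12 measured dissociation stress genes 1 was lower, FOS at 35 against 70.8 CPM (median −0.29).

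HOX genes, which mark position along the body axis, were given by paralogue group, the sets of related genes numbered from the head end to the tail end. Of 38 HOX genes 27 were measured, 3 were higher and 2 lower (median 0.21): HOXB1 (47.0 against 19.8 CPM, 2.38-fold), HOXD1 (38.2 against 17.6 CPM, 2.18-fold) and HOXB8 (76.0 against 37.7 CPM, 2.01-fold) were higher, and HOXA10 (8.29 against 44.7 CPM, 5.40-fold, 3.41 to 9.12) and HOXC10 (3.68 against 12 CPM, 3.26-fold) were lower. Summed by group, the members were at their highest in group 9, with 402 CPM against 273 (a ratio of 1.47, 1.38 to 1.58). Group 10 then stood at 13.8 CPM against 64.1 (a ratio of 0.215, 0.145 to 0.308), group 11 gave 2 UMIs (0.921 against 7.56 CPM), and groups 12 and 13 gave none. In the other barcodes group 12 gave no UMI either, and group 13 stood at only 1.85 CPM. Group 10 stood below group 9 in the members of cluster 8 (12.8 and 473 CPM) and also in the 20 members of cluster 10, which had 136 CPM of group 9 and no UMI of group 10.

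**Figure D3:**
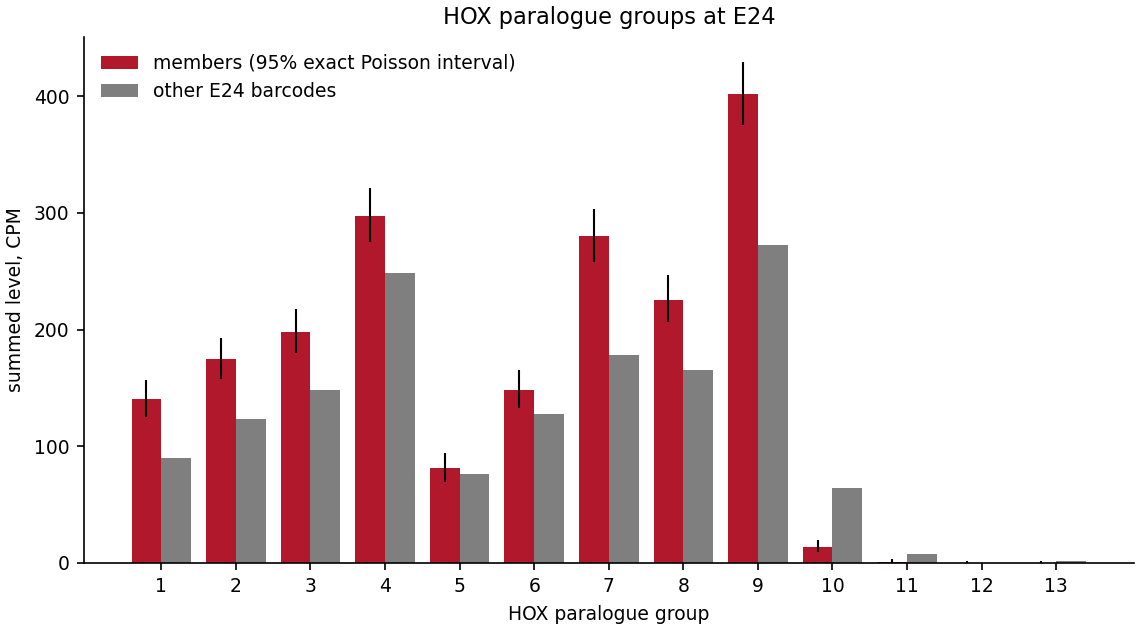
Summed level of HOX paralogue groups 1 to 13 in CPM, for the 169 members (red, with the Poisson 95% interval) and the other 10470 E24 barcodes (grey). Members stand at 402 CPM in group 9 and at 13.8 CPM in group 10, where the other barcodes stand at 273 and 64.1 CPM.

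A second comparison set the members against the 240 E24 barcodes that had PAX8 together with GATA3 or RET, 73 of them in cluster 1 and 93 in cluster 8. Of these 240, 120 carried WT1 or OSR1, so the set is a mix of cluster 1 and of barcodes from the members' own cluster. Both sets had close depth (median 12057 and 12596.5 UMIs) and close PAX8 (158 and 166 CPM). The 240 barcodes had WT1 at 55.1, OSR1 at 54.8, GATA3 at 151 and RET at 19.7 CPM. Of 8681 measured genes 0.818% were higher and 2.66% lower in the members, and again nothing is read from these shares, since the selection used GATA3 and RET. No nephric duct gene was higher and 7 of 11 measured were lower (median −1.85, beside −0.01 over all genes). GFRA1 stood at 12 against 94.3 CPM (7.88-fold lower, 5.27 to 12.3), TFAP2A at 4.14 against 89.3 CPM (21.6-fold, 11.2 to 47.6), and SIM1, without a UMI in the members, at 20.6 CPM in the GATA3 or RET set (at least 14.9-fold).

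Among other nephric factors, some differed between the members and the GATA3 or RET set and some did not reach 2-fold. EMX2, a homeobox gene of the urogenital ridge, was 3.92-fold lower in the members (3.07 to 5.07, 35 against 137 CPM) and PAX2 2.16-fold lower (1.25 to 3.89, 8.29 against 17.9 CPM). LHX1 was 1.46-fold lower, at 174 against 254 CPM, short of the 2-fold call. SALL1 (85.6 against 82.9 CPM), JAG1 (139 against 152) and GDNF (27.2 against 31.7) stood close. EYA1 did not reach 2-fold, with a ratio of 1.57 (1.28 to 1.92, 93.9 against 59.8 CPM). Against the 73 barcodes of cluster 1 alone, an alternative added after seeing the data, the log2 ratios were 4.61 for EYA1 in place of 0.65, 0.75 for SALL1 in place of 0.05, 0.69 for GDNF in place of −0.22, −1.02 for JAG1 in place of −0.13, −1.82 for LHX1 in place of −0.55 and −3.40 for EMX2 in place of −1.96. With 2 or more PAX8 UMIs asked for, the log2 ratio of PAX2 was −0.997, just under 2-fold.

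Other genes were lower in the members than in the GATA3 or RET set and included MECOM, a zinc finger regulator (5.06 against 68.7 CPM, 13.6-fold), the protocadherin PCDH9 (3 UMIs, 1.38 against 65.9 CPM, a ratio of 47.7, 16.1 to 233), the chemokine CXCL14 (0 UMIs against 40.0 CPM, at least 29.0-fold) and ALDH1A1, a retinaldehyde dehydrogenase (0 UMIs against 20.02 CPM, at least 14.5-fold). The CXCL14 UMIs of the GATA3 or RET set came from only 12 barcodes, and 62 of the 130 lay in 1 of them. Higher in the members were TCF21 (54.8 against 15.1 CPM, 3.63-fold, 2.58 to 5.17), the smooth muscle actin gene ACTA2 (29.0 against 7.70 CPM, 3.77-fold), IFI27 (117 against 46.8 CPM, 2.50-fold), CCL26 (2.76-fold), PHLDA1 (105 against 43.4 CPM, 2.42-fold), the NOTCH ligand DLL1 (59.4 against 28.3 CPM, 2.1-fold) and MEOX1 (43.7 against 21.3 CPM, 2.06-fold, 1.49 to 2.85). Of paraxial genes 4 of 10 measured were higher and none lower (median 0.68), and of HOX genes 1 was higher and 1 lower of 27 (median 0.01). The liver plasma protein genes also stood higher in the GATA3 or RET set, with AFP at 199 CPM, but 546 of its 647 AFP UMIs lay in 1 barcode. Outside clusters 14 and 25, led by FGB and APOA1, the log2 ratios of AFP and TTR were 0.01 and 0.037.

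Another comparison kept WT1 or OSR1 and removed PAX8: the members were set against 587 barcodes with WT1 or OSR1 and without PAX8 (median 10397 UMIs, WT1 at 41.3 and OSR1 at 107 CPM), 99 of them in cluster 8. It shares the members with the comparisons above. Of 8666 measured genes 1.51% were higher and 3.30% lower, and nothing is read from these shares, since PAX8 set the 2 groups apart. Genes that travel with PAX8 follow from that choice, so the values below are a description. LHX1 stood at 174 against 20.4 CPM (8.50-fold higher, 6.96 to 10.4), EMX2 at 35 against 9.06 (3.86-fold, 2.71 to 5.52), OSR2 at 43.3 against 12.7 (3.40-fold) and EYA1 at 93.9 against 29.9 (3.14-fold, 2.57 to 3.84). IL24, with 39.1 against 0.614 CPM, had the highest ratio of the genes named here (63.7-fold, 24 to 239). SFRP2 (6.11-fold, 603 against 98.6 CPM), IFI27 (8.37-fold), IFITM1 (5.28-fold), ETV4 (4.64-fold), JAG1 (3.60-fold) and GDNF (3.40-fold) were also higher. SALL1 and ALDH1A2 stood at ratios of 1.16 and 1.02. Of the intermediate mesoderm list 5 of 8 measured were higher and none lower (median 1.53, beside −0.02 over all genes).

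The genes lower in the members than in these WT1 or OSR1 barcodes included many of the splanchnic and mesenchymal lists. Of splanchnic genes none was higher and 7 of 9 were lower (median −2.23): FOXF1 stood at 1.84 against 22.4 CPM (12.2-fold), HAND1 at 26.2 against 114 CPM (4.34-fold, 3.31 to 5.78), TAGLN, an actin-binding protein of smooth muscle, at 19.3 against 120 CPM (6.19-fold), and GATA4 gave no UMI against 9.52 CPM (at least 6.89-fold). PITX1 stood at 10.1 against 120 CPM (11.8-fold, 7.74 to 19). Of mesenchymal genes none was higher and 13 of 24 were lower (median −1.02), with COL3A1 at 118 against 654 CPM (5.55-fold, 4.89 to 6.32) and COL1A1 at 70.9 against 251 CPM (3.54-fold). HOXA10 was 6.35-fold lower, and group 10 as a whole stood at 75.8 CPM in these barcodes and at 15.7 CPM in the GATA3 or RET set, beside 13.8 in the members. Of the dissociation stress genes 3 of 12 were lower (median −0.58), with FOS 2.38-fold lower, so handling-sensitive genes moved with this comparison; their part in it was not tested.

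**Figure D4:**
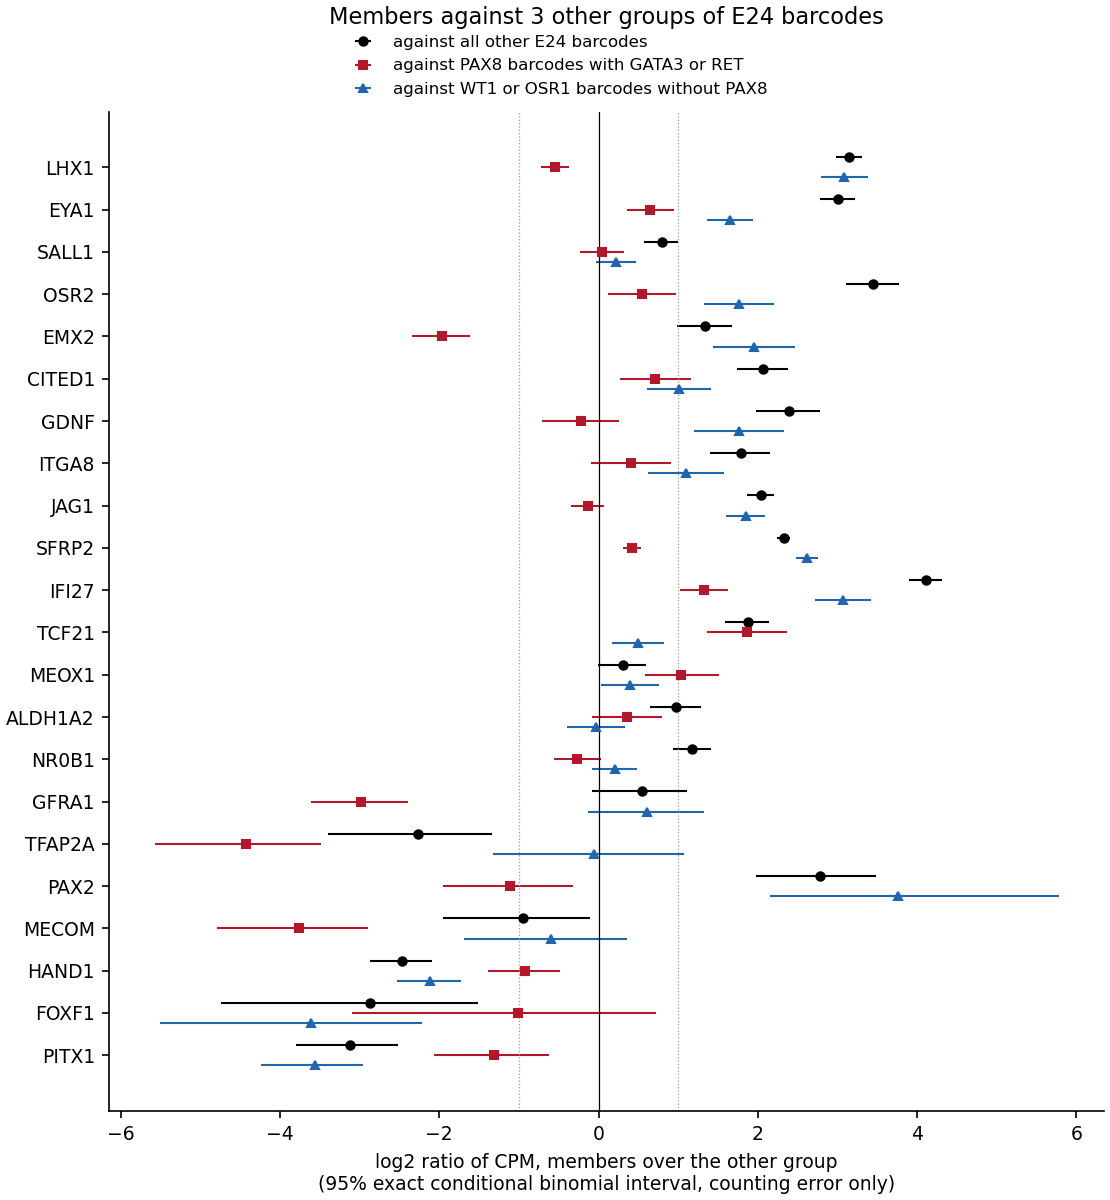
Log2 ratio of the level in members to the level in each of 3 other sets of E24 barcodes, for 22 genes, with 95% counting intervals: all others (black), PAX8 barcodes with GATA3 or RET (red) and WT1 or OSR1 barcodes without PAX8 (blue). Dotted lines mark 2-fold; LHX1 lies above the upper line for black and blue and below 0 for red.

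Members differed from the barcodes of their own leading cluster in few genes. Against the 318 other barcodes of cluster 8, the 127 members there had 21 of 7451 measured genes higher (0.282%) and 38 lower (0.510%), with no intermediate mesoderm marker of 8 called (median 0.09). LHX1 stood at 204 against 140 CPM (a ratio of 1.46, 1.26 to 1.68), SFRP2 at 689 against 412 CPM (1.67) and IFI27 at 145 against 78.3 CPM (1.86). CRYGN, a crystallin gene, was 2.08-fold higher (60.0 against 28.8 CPM). CDX2, a caudal homeobox gene, was 2.48-fold lower (1.84 to 3.40, 33.2 against 82.2 CPM), HOXA10 3.67-fold lower (8.29 against 30.5 CPM), and PITX1 stood at 1.28 against 17.9 CPM (14-fold lower, 3.73 to 118). Both the members and the other barcodes of the cluster held a median of 3 of the 9 panel genes.

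Members with WT1 and no OSR1 (66) and with OSR1 and no WT1 (45) were not alike. Of 4231 measured genes 63 (1.49%) were higher and 78 (1.84%) lower in the WT1 members. JAG1 stood at 243 CPM in the WT1 members and 38.7 CPM in the OSR1 members (6.27-fold, 4.03 to 10.2), EMX2 at 65.8 against 19.4 (3.40-fold, 1.76 to 7.19), SFRP2 at 909 against 276 (3.29-fold, 2.76 to 3.93), LHX1 at 274 against 118 (2.32-fold, 1.76 to 3.09) and BMP4 at 161 against 61.6 (2.62-fold). The NOTCH list had 3 of 7 measured genes higher and none lower (median 0.82). Higher in the OSR1 members were the caudal genes CDX2 (102 against 8.37 CPM, 12.2-fold, 5.56 to 31.7) and CDX4 (82.8 against 14.3 CPM, 5.77-fold), RSPO3 (188 against 26.3 CPM, 7.16-fold, 4.50 to 11.9), HOXC9 (82.8 against 14.3 CPM, 5.77-fold), HOXC8 (2.74-fold), NR0B1 (125 against 34.7 CPM, 3.61-fold, 2.31 to 5.76) and ALDH1A2 (58.1 against 21.5 CPM, 2.70-fold). EYA1 (88.5 against 95.1 CPM), OSR2 (43.0 against 38.7) and SALL1 (65.8 against 93.3) did not reach 2-fold.

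These 2 kinds of member also took different clusters. Cluster 8 held 54 of the 66 WT1 members (81.8%), 27 of the 45 OSR1 members (60.0%) and 46 of the 58 with both (79.3%), and cluster 10 held 3, 10 and 7 of them. The ratios above cover all clusters. Compared with members of cluster 8, those of cluster 10 also had less JAG1 and LHX1 and more NR0B1, but less RSPO3. Within cluster 8 alone, 45 of 2731 measured genes were lower in the WT1 members, in place of 78 of 4231, so fewer genes were measured as well. Some large ratios in this comparison were the work of 1 barcode, and those genes, MYLPF (80 of 83 UMIs in the WT1 members), TNNI1 (50 of 63), SPINK1 (60 of 63 in the OSR1 members) and FGB (82 of 86), are not read further. In the OSR1 members, 1 barcode also held 14 of the 58 CDX2 UMIs, and 1 held 25 of the 107 RSPO3 UMIs. The split is by detected UMIs of low genes, and 0 UMIs of OSR1 or WT1 do not show that a cell lacked them.

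The 20 members in cluster 10 stood apart from the 127 in cluster 8. Of 1970 genes that could be measured on 228529 against 1567259 UMIs, 85 (4.31%) were higher and 47 (2.39%) lower. The rule genes stood at 123 against 181 CPM (PAX8), 70.0 against 115 (WT1) and 96.3 against 102 (OSR1). EYA1 stood at 26.3 against 119 CPM (4.54-fold lower), JAG1 at 30.6 against 172 CPM (5.60-fold lower), IFI27 at 21.9 against 145 CPM (6.65-fold lower) and LHX1 at 101 against 204 CPM (2.02-fold lower, 1.32 to 3.24). OSR2 (74.4 against 42.1 CPM), ALDH1A2 (56.9 against 31.3) and SALL1 (74.4 against 95.1) did not reach 2-fold. These 20 barcodes held a median of 1 of the 9 panel genes.

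In their place these 20 members carried NR0B1, the nuclear receptor DAX1 of adrenal and gonadal development, at 398 against 24.2 CPM (16.4-fold higher, 11.1 to 24.7), the imprinted gene DLK1 at 1269 against 144 CPM (8.84-fold, 7.4 to 10.6), and matrix genes: COL3A1 at 263 against 15.3 CPM (17.1-fold), COL1A2 at 354 against 34.5 CPM (10.3-fold), EFEMP1 at 245 against 12.1 CPM (20.2-fold) and SPARC at 564 against 118 CPM (4.78-fold). Keratins 8 and 19 were 3.13-fold and 3.78-fold higher too. The mesenchymal list had 5 of 10 measured genes higher and 2 lower (median 1.38) and the epithelial list 4 of 5 higher and none lower (median 1.92). Clusters were formed from the same genes, so these values describe what separates cluster 10. NR0B1 among all members rests on them: over all 169 it was 2.26-fold higher than in other barcodes (69.5 against 30.8 CPM), and for the members of cluster 8 against barcodes outside that cluster its log2 ratio was −0.36.

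The number of PAX8 UMIs went with some other nephric genes and not with others. The 87 members with 1 PAX8 UMI and the 82 with 2 or more had LHX1 at 103 and 243 CPM, EMX2 at 14.8 and 55.1, PAX2 at 3.69 and 12.9 and NR0B1 at 102 and 36.7. EYA1 (96.9 and 90.9 CPM) stood close. Cluster 8 held 66.7% of the first set and 84.1% of the second.

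The same selection was then run on the later libraries. It found 1331 of 5028 barcodes at E28 (26.5%, 25.3% to 27.7%), 1393 of 6661 at E31 (20.9%, 19.9% to 21.9%) and 75 of 5298 at E37 (1.42%, 1.12% to 1.77%). The dissections differed, so the tissue taken and the stage cannot be told apart in these shares. The same limit holds for every gene level and ratio between stages below. The makeup of the selected barcodes differed as well: WT1 without OSR1 was the pattern of 39.1% at E24, 92.5% at E28, 90.1% at E31 and 61.3% at E37. OSR1 stood at 93.0, 7.35, 11.7 and 60.3 CPM across the 4 stages, WT1 at 102, 327, 340 and 207, and PAX8 at 158, 264, 240 and 166.

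Against E24, the E28 barcodes of the same selection carried the genes of podocytes and tubules. Of 9227 genes measured 10.1% were higher and 2.08% lower at E28, with a median log2 ratio of 0.16 over all genes. Of the tubule and podocyte list 12 of 18 measured were higher and none lower (median 1.31). PODXL stood at 27.2 CPM at E24 and 356 CPM at E28 (13.1-fold higher, 10.2 to 17.3). PTPRO, a podocyte phosphatase, gave 2 UMIs at E24 (0.921 against 88.4 CPM, a ratio of 96.1, 26.5 to 794), and LRP2, an endocytic receptor of tubules, stood at 4.6 and 20.2 CPM (4.39-fold higher, 2.36 to 9.24). FXYD2, a subunit of the renal sodium pump, gave none at E24 and 72.7 CPM at E28 (at least 52.7-fold). These genes thus set the E24 members apart from the later barcodes that the same 5 genes select.

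Nephric factors differed between the E24 and E28 libraries in more than one way. PAX2 (8.29 and 31.9 CPM, 3.84-fold higher, 2.41 to 6.53), EMX2 (35 and 138 CPM, 3.95-fold, 3.14 to 5.03) and OSR2 (43.3 and 93.6 CPM, 2.16-fold) were higher at E28. LHX1 (174 and 220 CPM), JAG1 (139 and 237) and EYA1 (93.9 and 78.6) did not reach 2-fold. SALL1 was 2.47-fold lower at E28 (2.09 to 2.92, 85.6 and 34.6 CPM). GDNF stood at 27.2, 14.4, 17.2 and 69.4 CPM and SIX2 at 2.30, 2.74, 3.31 and 37.7 CPM across E24, E28, E31 and E37, with the E37 value resting on 75 barcodes.

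**Figure D5:**
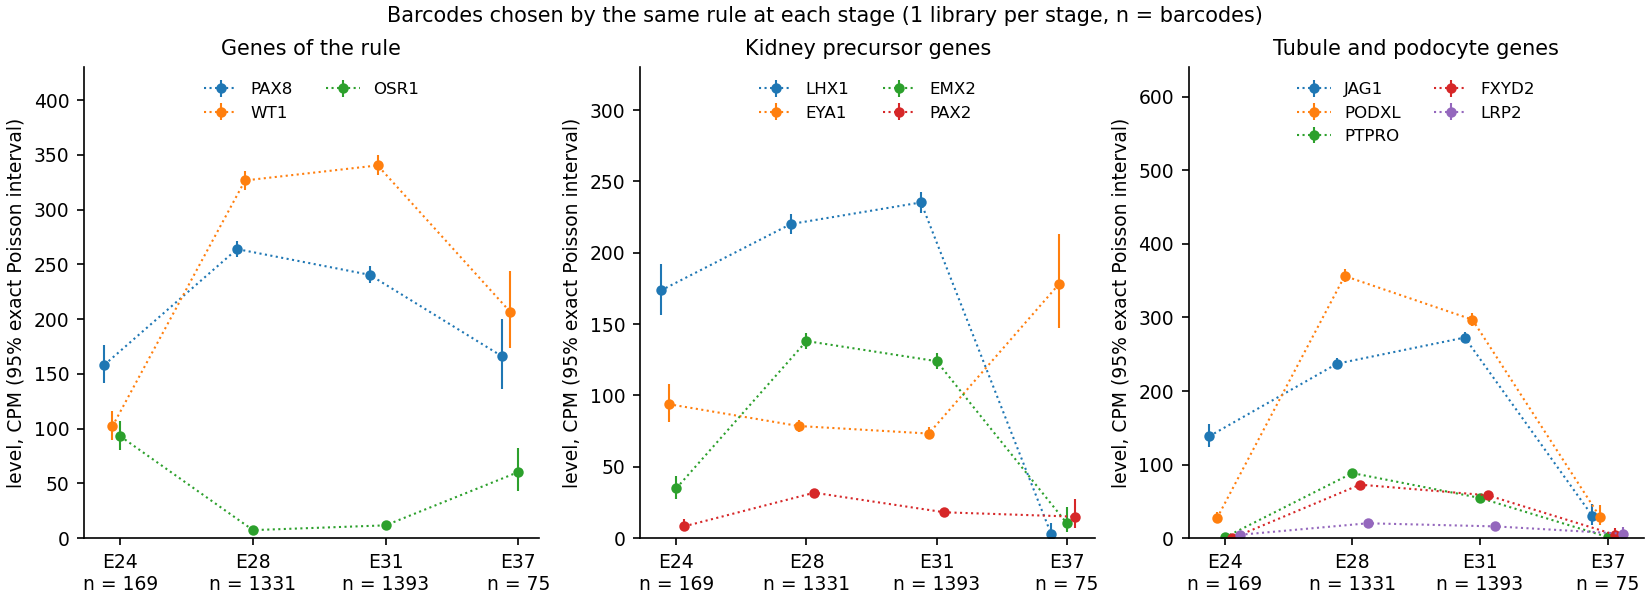
Level in CPM, with the Poisson 95% interval, of 12 genes in barcodes that met the same selection at E24 (169), E28 (1331), E31 (1393) and E37 (75), in 3 panels: rule genes, other nephric factors, and tubule and podocyte genes. Points are 1 library each, the dissection differs between stages, and dotted lines only join stages. PODXL stands at 27.2 CPM at E24 and 356 CPM at E28, and OSR1 at 93.0 and 7.35 CPM.

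Caudal genes and several genes that were high in the E24 members were lower at E28. CDX2 stood at 40.5 CPM at E24 and gave 1 UMI at E28 (a ratio of 711, 124 to 28394), and 4 of 6 measured caudal genes were lower with none higher (median −2.62). LIN28A stood at 199 and 44.6 CPM (4.47-fold lower), RSPO3 at 110 and 14.7 CPM (7.45-fold lower, 6.22 to 8.92) and keratin 19 was 9.70-fold lower (8.60 to 10.9). IL24 and IFI27, among the highest ratios of the E24 members, were 11.8-fold and 9.82-fold lower at E28, with IFI27 at 117, 11.9, 79.4 and 24.1 CPM over the 4 stages. SFRP2 stood at 603, 396, 532 and 78.4 CPM. HOX group 10 stood at 13.8 CPM at E24, 78.3 at E28, 55.4 at E31 and 415 at E37, and HOXA10 alone was 6.44-fold higher at E28 (4.05 to 10.9).

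Handling and blood genes also differed between the libraries. Of 14 dissociation stress genes measured, 8 were higher at E28 and 1 lower (median 2.06), with FOS at 35 and 362 CPM (10.3-fold), EGR1 13.1-fold and JUN 5.54-fold higher. The globin genes HBZ (45.6 and 435 CPM, 9.54-fold) and HBE1 (78.7 and 541 CPM, 6.88-fold) were higher at E28 too. The part of handling and of free RNA in the stage differences was not tested.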

How the data were processed

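The deposited tables hold unnormalised UMI counts for each gene in each barcode, from Cell Ranger 2.1.0 per the submitters' processing notes. The genome build, like the annotation, was not given in the sources used here, and the labels' protocol mentions v2 chemistry in one place and v3 kits in another. Each library had 26223 gene rows; 1 blank row held 0 UMIs. Of 9499 LOC rows 3867 were found in the RefSeq name table and 673 were given its symbol. Members and gene lists were chosen with earlier results of these data known.

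UMIs were summed over the barcodes of a set. Ratios have exact conditional binomial, levels exact Poisson and shares exact binomial 95% intervals, for counting error only. Bounds against 0 UMIs use 3 counts, and log2 ratios of list genes a pseudocount of 0.5 UMIs. With 1 library a stage no test was run. E24 was clustered in scanpy 1.11.5 (2000 variable genes without the rule genes, 30 principal components, 15 neighbours, Leiden resolution 1, seed 0; igraph 0.11.9, scikit-learn 1.9.0). Scrublet called 0 doublets, so none was removed; an alternative removes the 906 highest scores. Thinning was to 3000 UMIs. Scripts used Python 3.11.15, numpy 2.4.6, scipy 1.17.1 and pandas 2.3.3, and were tested on simulated counts.

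Named genes are up to 12 per direction and comparison, by the interval bound nearest 1, with at least 50 UMIs in the higher set and without LOC, ribosomal protein and rule genes, plus up to 4 examples per list, the HOX genes and a fixed set of mesoderm regulators. Other genes, among them CITED1, ITGA8, BMP4, CDX2, CRYGN, DLL1 and the panel of 9, were named after their values were seen. The alternatives with clusters 14 and 25 left out, with cluster 1 alone, without the 22 members outside both leading clusters, and those on the comparisons among members were added after seeing the data. A few genes are not reported here, though list counts include them.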

Additional observations from a re-analysis of the deposited data

How the results depend on the processing

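No paired analysis was possible because the labels carry no replicate numbers and each stage has 1 library. Of 384 gene ratios recomputed under the alternatives, 2051 of 2518 values stayed within the counting interval, 443 moved and 24, of 18 ratios at 2-fold or more, changed sign; of 882 list medians 100 moved and 6 changed sign.

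Counts of higher and lower genes followed the filter. At 50 UMIs they were 86 and 141 against the other E24 barcodes, 20 and 82 against the GATA3 or RET set, 56 and 134 against WT1 or OSR1 barcodes, 413 and 105 for E28 against E24, 15 and 12 for WT1 against OSR1 members, 28 and 8 for cluster 10 against cluster 8 members, and 1 and 3 within cluster 8. At 5 UMIs the first 4 pairs were 419 and 933, 352 and 748, 398 and 861, and 1919 and 476. Fewer or more genes measured make these differences by construction. With 2 or more PAX8 UMIs, 219 genes were lower than in other barcodes, 137 lower than in the GATA3 or RET set and 589 higher at E28. Thinning before the selection left 29 and 42 at E24 and 68 and 35 for E28. Against cluster 1 alone 217 of 6004 measured genes were higher and 351 lower, and among cluster 8 members 45 of 2731 were lower with WT1.

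Members were 0.771% of E24 barcodes with 2 or more PAX8 UMIs, 0.423% after thinning, 2.72% without the GATA3 and RET conditions, 1.17% with WT1 alone and 0.968% with OSR1 alone. The leading cluster held 58.6% of them at resolution 2, and 73.4% at resolution 0.5.

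Signs of ratios and medians that reached 2-fold changed as follows, in log2. Without the GATA3 and RET conditions RBP4 was 0.48, AFP 0.41, AHSG 0.69, APOA1 0.14, FGG 1.25 and TTR 0.43; for cluster 8 members NR0B1 was −0.36; after thinning TCF15 was 0.47 and the caudal median 0.23, and SIM1, too low to be measured, was 0.94 in place of −2.71. Against the GATA3 or RET set with 2 or more PAX8 UMIs, FGG was 0.62, AHSG 1.36, APOA2 0.62 and FGA 2.21. Without clusters 14 and 25, AFP was 0.01, APOA2 0.56, FGA 1.29, TTR 0.037 and the notochord and gut median 0.0285. Against cluster 1 alone, FGG was 0.33, AFP 2.83, APOA2 1.55, APOA1 1.85, TTR 2.53, the limb median 0.27 and the notochord and gut median 0.39. For E28 after thinning, LUM was 0.62, DCN 0.44, the splanchnic median 0.47 and the endothelium and blood median −6.02. IGFBP3 was −1.07 among cluster 8 members. The cause was not tested. Calls against the other E24 barcodes that fell under 2-fold in an alternative included those of EMX2 and BMP4 (0.18 and 0.66 with OSR1 alone), FOXC1 and HOXB1 (0.71 and 0.30 after thinning), RSPO3 (0.89 with WT1 alone), HOXB8 and KRT19 (0.86 and −0.93 with 2 or more PAX8 UMIs), and PODXL (−0.89 after thinning). Against the GATA3 or RET set MEOX1 was 0.84 with 2 or more PAX8 UMIs.

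The members' 2172207 UMIs limit what can be seen: a gene at 10 CPM gives 22 UMIs, and 0 UMIs allow up to 1.38 CPM. Depth, capture of PAX8, WT1 and OSR1, and the absence of GATA3 all decide membership, and cells that express these genes without a captured UMI lie among the other barcodes.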
